A study of Homo sapiens with 4 samples.

Results

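CCL2, the monocyte chemoattractant protein, was followed in both species of a xenograft: as the human gene CCL2 of the implanted tumour cells and as the mouse genes Ccl2, Ccl7 and Ccl12 of the host. These 4 genes, of 68886 features counted (36601 human and 32285 mouse), were taken by name in all 1056 cell barcodes of 4 single-cell RNA libraries. Human CCL2 counts were then set against the mouse Ccl2 counts of the same barcode, within each library and within 2 classes of mouse content. A barcode was called fibroblast-like where Col1a1, Col1a2 and Col3a1 together made up at least 1% of its mouse UMIs (unique molecular identifiers, each standing for 1 captured RNA molecule), and macrophage-like where C1qa, C1qb and C1qc made up at least 0.3%. The genes were chosen with results of these libraries known, so their levels are given as a description.

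PANC-1, a human pancreatic ductal adenocarcinoma line, was grown as a subcutaneous tumour in nude mice, which lack a thymus and so mature T cells but keep fibroblasts, macrophages and other innate cells. The labels name 1 library for each of 4 treatments: control, agrimoniin (a plant ellagitannin), erlotinib (an inhibitor of the EGFR kinase) and agrimoniin with erlotinib, here called the combination. The design text of the series names cyranin where the labels name erlotinib, and the labels were followed. Tumours were digested with collagenase before droplet capture of the 3′ ends of RNA. Dose, duration, age and sex of the mice, and the number of tumours in a library, are not given in the sources used here. With 1 library per treatment there was no replicate and no test of a treatment: the 95% intervals below cover counting error only, and a difference between libraries cannot be told apart from a difference between tumours or preparations.

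The libraries held 202 (control), 297 (agrimoniin), 306 (erlotinib) and 251 (combination) barcodes, none shared between libraries, with 3656549, 5133188, 5301915 and 4050572 UMIs. Every barcode carried both species: human UMIs made up between 28.2% and 94.1% of a barcode, so a barcode has a human part and a mouse part and is not 1 cell of 1 species. Median human UMIs per barcode lay between 11412.5 (control) and 12447 (agrimoniin), and median mouse UMIs fell from 4836.5 in control to 3773 with agrimoniin, 3859 with erlotinib and 2971 with the combination. The human part carried the keratins KRT8 (35.6 to 49.1 CPM, here UMIs per 1000000 UMIs of that species) and KRT18 (46.6 to 63.3), but the ductal keratins KRT19 (at most 0.511) and KRT7 (at most 1.2) were near the level of 3 UMIs, which was 0.766 to 1.2 CPM. The label PANC-1 is therefore kept as the labels give it, with 2 of its 4 defining keratins near absent. Of the mouse parts, 87, 104, 93 and 94 were fibroblast-like and 83, 142, 164 and 105 macrophage-like in the order control, agrimoniin, erlotinib, combination, 9 barcodes passed both thresholds and were counted in both, and 33 to 54 per library passed neither. In parts just under the collagen threshold (0.5% to 1%; 6, 2, 1 and 1 parts) mouse Ccl2 was at 569, 2761, 1409 and 0 CPM, and in those just over it (1% to 2%; 2, 9, 6 and 11 parts) at 0, 5577, 1043 and 1063 CPM. Just under the C1q threshold (0.15% to 0.3%; 7, 7, 9 and 11 parts) it was at 109, 46.1, 145 and 287 CPM, and just over it (0.3% to 0.6%; 20, 21, 35 and 18 parts) at 757, 216, 602 and 375 CPM.

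CCL2 is a small secreted chemokine that recruits monocytes through the receptor CCR2. Fibroblasts, macrophages, endothelial cells and many tumour cells are known to make it when NF-kB is switched on by interleukin-1 or tumour necrosis factor, and in pancreatic tumours it is known for drawing in monocytes that become tumour macrophages. In the mouse Ccl2 (ENSMUSG00000035385), Ccl7 (ENSMUSG00000035373) and Ccl12 (ENSMUSG00000035352) are neighbouring genes of one cluster whose products all act on Ccr2.

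Human CCL2 (ENSG00000108691) lies on chromosome 17, at chr17:34255218-34257203 on the plus strand of GRCh38, with 3 exons. The reading of its counts rests on telling CCL2 apart from its paralogs. In the GENCODE 29 transcripts the longest run of identical bases that CCL2 shared with any other human gene was 23 bases, with CCL7. The longest runs shared with CCL8, CCL11 and CCL13, paralogs in the same stretch of chromosome 17, were 22, 21 and 21 bases. Human CCL8, CCL11, CCL13 and CCL1 had 0 UMIs in every library, and human CCL7 had 2 UMIs in all, both in the erlotinib library. Human counts in this gene cluster were thus counts of CCL2 in all but 2 UMIs. Mouse transcripts were not compared with human CCL2, since no mouse reference was used here.

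Human CCL2 was found in few barcodes and at high counts in some of them. All 4 libraries together gave 608 UMIs, in 108 of 1056 barcodes. The control library had 77 UMIs, or 30.7 CPM (24.2 to 38.4). The agrimoniin library had 228, or 60.1 CPM (52.5 to 68.4). The erlotinib library had 175, or 44.7 CPM (38.3 to 51.8), and the combination 128, or 40.5 CPM (33.8 to 48.2). Agrimoniin was the highest and control the lowest, and the combination lay between them.

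The agrimoniin level was 1.96 times that of control (1.5 to 2.57), past the 1.5-fold used here to call a gene, which 3.03% of the 9242 human genes tested also passed upward. Erlotinib was 1.45 times control (1.11 to 1.93) and the combination 1.32 times (0.987 to 1.77), both short of 1.5-fold, which 3.44% and 3.08% of human genes passed upward. The combination was 1.48-fold lower than agrimoniin (1.19 to 1.85) and 1.10-fold lower than erlotinib (0.873 to 1.40), the latter within counting error. In barcodes with at most 10% mitochondrial human UMIs the ratios to control were 1.40, 0.616 and 0.740, so that erlotinib and the combination were below control there. The median mitochondrial share of human UMIs was 10.6% in the control library, 9.95% in the agrimoniin library, 9.48% in the erlotinib library and 9.21% in the combination, and its part in the ratios was not tested.

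The order of libraries by the share of barcodes that held human CCL2 was another one. The combination had the highest share, 13.9% (35 of 251 barcodes; exact 95% interval 9.91 to 18.9), and agrimoniin 11.1% (33 of 297; 7.77 to 15.2). Control had 8.91% (18 of 202; 5.37 to 13.7) and erlotinib the lowest, 7.19% (22 of 306; 4.56 to 10.7). These intervals all overlap. With each human part thinned to 1000 UMIs, which left out none, the shares were 2.05% (control), 3.80% (agrimoniin), 2.48% (erlotinib) and 3.46% (combination). No barcode was free of human RNA, so there was no cell type without human CCL2 to give the share from free RNA.

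A handful of barcodes held much of the human CCL2. The highest barcode of the control library had 38 of its 77 UMIs (49.4%). The highest barcode had 60 of 228 UMIs (26.3%) in agrimoniin, 48 of 175 (27.4%) with erlotinib and 20 of 128 (15.6%) with the combination, and the 5 highest had 46.9% to 77.9%. Leaving out the highest barcode of each library gave 15.6 CPM in control, 44.5 with agrimoniin, 32.5 with erlotinib and 34.4 with the combination, so that the ratios to control became 2.84, 2.08 and 2.20. The size of each ratio therefore turned on single barcodes, most of all the control barcode with 38 UMIs.

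That spread was far above the spread of human genes of like abundance. The variance of human CCL2 UMIs over barcodes, divided by their mean, was 20.6 in control, 23.4 with agrimoniin, 22.7 with erlotinib and 8.12 with the combination. The median of the human genes with a total within 2 times that of CCL2 (4286 to 4610 genes a library) was 1.35 to 1.49. In control none of them exceeded CCL2, and in agrimoniin 3 did (COL6A3, CTSV and SCG2). In erlotinib ACTA2 and TIMP3 exceeded it, and in the combination 7 genes did (COL11A1, EGR4, IGFBP5, SCG2, SERPINA3, SPARC and TIMP3). Several of these encode matrix or secreted proteins, such as the collagen chains COL6A3 and COL11A1 and the protease inhibitor TIMP3.

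**Figure D1:**
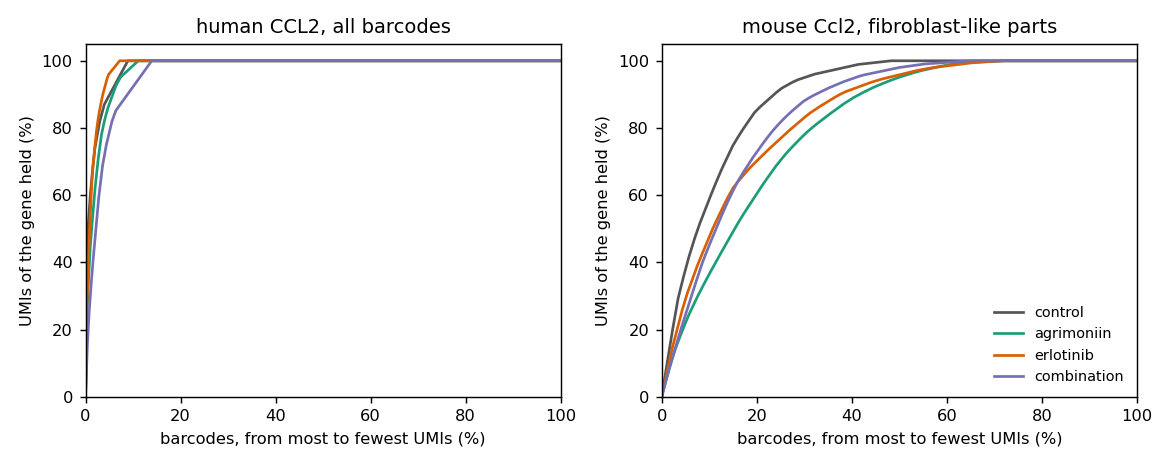
Share of a gene's UMIs (vertical axis, %) held by barcodes taken from the most to the fewest UMIs (horizontal axis, % of barcodes), 1 line per library. Human CCL2 (left, all barcodes) reaches 100% within the 7.19% to 13.9% of barcodes that hold it, while mouse Ccl2 in fibroblast-like parts (right) is spread over 48.3% to 72.1% of parts.

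In the curves of cumulative share human CCL2 rose almost vertically in every library, while mouse Ccl2 in fibroblast-like parts was spread over a larger share of barcodes. The 2 genes are of unlike abundance, with means of 0.381 to 0.768 human CCL2 UMIs per barcode and 6.36 to 15.7 mouse Ccl2 UMIs per fibroblast-like part. A gene with more UMIs per part is seen in more parts, so the curves do not compare the genes at equal abundance.

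Beside human CCL2, several NF-kB target genes were also higher in the same human parts. Barcodes with at least 3 CCL2 UMIs (6 in control, 19 with agrimoniin, 14 with erlotinib and 14 with the combination) were set against those with 0. Of 44 human chemokine, receptor, inducer and NF-kB genes looked at, 17 reached 10 CPM in all 4 libraries, and 5 of these were at least 1.5-fold higher beside CCL2 in all 4: CXCL1, TNFAIP3, NFKB2, BIRC3 and ICAM1. Of the 7902 human genes that reached that level in all 4 libraries, 0.974% were at least 1.5-fold higher in all 4, and in single libraries 28.1% (control), 16.7% (agrimoniin), 16% (erlotinib) and 20.6% (combination) were. NFKB2 rested on 5 to 7 UMIs beside CCL2, with intervals that include 1 in agrimoniin, erlotinib and the combination. TNFAIP3 in erlotinib was 1.69 times as high (0.658 to 3.64). Other genes of these lists did not follow in every library. In erlotinib NFKBIZ was 0.755 times as high (0.358 to 1.41) and REL 0.594 (0.294 to 1.08), and in agrimoniin ZFP36 was 0.834 (0.786 to 0.884). The comparison uses the barcodes picked for their CCL2 and rests on few of them, so it is a description.

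BIRC3, an inhibitor of cell death and NF-kB target, was 2.09 times as high beside CCL2 in control (1.02 to 3.84). It was 4.09 times as high in agrimoniin (3.24 to 5.14), 1.73 with erlotinib (1.18 to 2.45) and 2.89 with the combination (2.02 to 4.06). ICAM1, a leukocyte adhesion molecule, was 3.61 times as high in control, 4.12 with agrimoniin, 2.67 with erlotinib and 2.54 with the combination, with all 4 intervals above 1. CXCL1, a neutrophil chemokine, was 13.3 times as high in control (7.0 to 24.1), 6.94 with agrimoniin (4.45 to 10.6) and 17.7 with the combination (10.6 to 29.8), and 1.75 with erlotinib on 6 UMIs (0.620 to 4.01). In control, erlotinib and the combination 10, 2 and 15 of the CXCL1 UMIs beside CCL2 were in 1 barcode. CXCL8, another neutrophil chemokine, had 52 of its 57 UMIs in the compared agrimoniin barcodes beside CCL2, 35 of them in 1 barcode, and 0 beside CCL2 in control and erlotinib.

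Few barcodes were high for both human CCL2 and mouse Ccl2. At least 10 UMIs of each were counted in 2 barcodes of the agrimoniin library, 2 of the erlotinib library and 0 of the control and combination libraries. Barcodes with at least 10 human CCL2 UMIs were themselves few, 1, 8, 5 and 3 in the order control, agrimoniin, erlotinib, combination. Those with at least 10 mouse Ccl2 UMIs were 22 of 202, 52 of 297, 40 of 306 and 39 of 251. The small overlap therefore does not show that the 2 genes avoid each other. Of 608 human CCL2 UMIs, 314 (51.6%) lay in the 591 barcodes (56.0%) with no mouse Ccl2 UMI. Of 153 barcodes with at least 10 mouse Ccl2 UMIs, 10 had a human CCL2 UMI, beside 108 of all 1056 barcodes. The barcodes richest in human CCL2 had 0 mouse Ccl2 UMIs in control, 0 with agrimoniin, 3 with erlotinib and 6 with the combination. The 5 barcodes richest in mouse Ccl2 with agrimoniin, with 84, 79, 70, 60 and 56 UMIs, had 0 human CCL2 UMIs, as did the 5 richest in erlotinib (76, 76, 63, 63 and 54). Of the 5 richest in control (56, 55, 51, 36 and 33) the first had 1 human CCL2 UMI and the others 0. Of the 5 richest in the combination (55, 51, 47, 47 and 45) the last pair had 2 and 1 and the others 0.

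**Figure D2:**
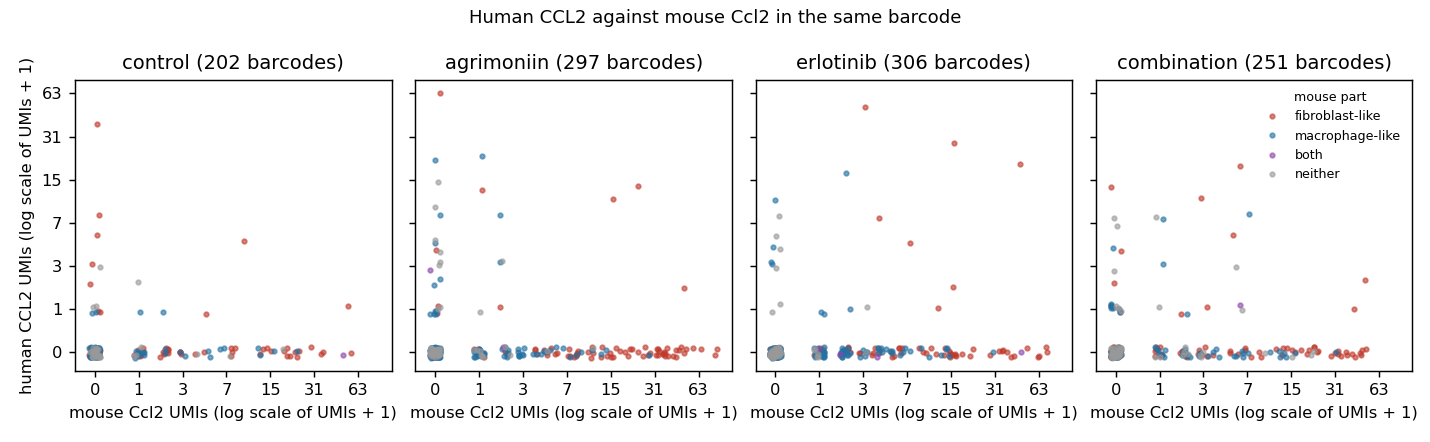
Human CCL2 UMIs (vertical) against mouse Ccl2 UMIs (horizontal) of each barcode, both on a log scale of UMIs + 1 with a small random shift of the points, 1 panel per library and coloured by mouse class. Points lie along the 2 axes, with few barcodes high for both: in erlotinib those with 27 and 18 human and 16 and 45 mouse UMIs, and in agrimoniin those with 13 and 10 human and 23 and 16 mouse UMIs.

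The plot of both counts per barcode shows most points on 1 of the axes. The Pearson correlation of UMIs over barcodes was -0.03 in control, -0.05 with agrimoniin, 0.06 with erlotinib and -0.04 with the combination (202, 297, 306 and 251 barcodes). On log levels it was -0.03, -0.08, 0.08 and 0.01. Same-symbol human and mouse gene pairs with at least 100 UMIs of each species (1312 to 2078 pairs per library, to which CCL2 was added in control, where it had fewer) had medians of 0.00 to 0.01. The CCL2 value lay above 29.8% of pairs in control, 7.89% with agrimoniin, 87.8% with erlotinib and 53.7% with the combination. The points of a library share its depth and its free RNA, so these values only describe it.

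Grouped by their mouse Ccl2 count, the barcodes gave no common order of human CCL2. In control, barcodes with 0 mouse Ccl2 UMIs had human CCL2 at 41.8 CPM and those with 10 or more 3.76, on 1 UMI. In agrimoniin the level was 72.7 CPM at 0 mouse UMIs, 88.1 at 1 to 2, none in 450828 human UMIs at 3 to 9 (which allows up to 6.65) and 37.0 at 10 or more. In erlotinib it was 20.7, 28.2, 126 and 87.4 over the same steps. In the combination it was 30.2, 45.9, 106 and 6.35. The erlotinib library had its 2 highest levels in the 2 upper steps, and the combination fell at the last step after its highest value.

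Barcodes with at least 10 mouse Ccl2 UMIs were next set against those with 0 to 2. The human CCL2 level was 0.108 times as high in control (0.00270 to 0.623; 1 against 70 UMIs) and 0.487 times as high in agrimoniin (0.308 to 0.740; 25 against 203 UMIs). In the combination it was 0.189 times as high (0.0381 to 0.574; 3 against 74 UMIs). In erlotinib it was 3.87 times as high (2.61 to 5.70; 48 against 65 UMIs), but 45 of the 48 UMIs were in 2 barcodes. Among fibroblast-like barcodes alone the agrimoniin ratio was 0.242 (0.148 to 0.382). In erlotinib 4 of 34 fibroblast-like barcodes with at least 10 mouse Ccl2 UMIs held those 48 human UMIs, and 0 of 40 with 0 to 2 held any (exact interval up to 8.81%). Without the 3 barcodes richest in human CCL2 in each library, a choice made after the data were seen, the agrimoniin ratio was 0.960 and the erlotinib ratio 2.44. With mouse Ccl2 taken as CPM instead of as a count, the combination ratio turned to 1.79. As shares of barcodes with a human CCL2 UMI, the same comparison gave 1 of 22 against 15 of 161 in control, 3 of 52 against 30 of 208 with agrimoniin, 4 of 40 against 14 of 226 with erlotinib and 2 of 39 against 25 of 174 with the combination.

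**Figure D3:**
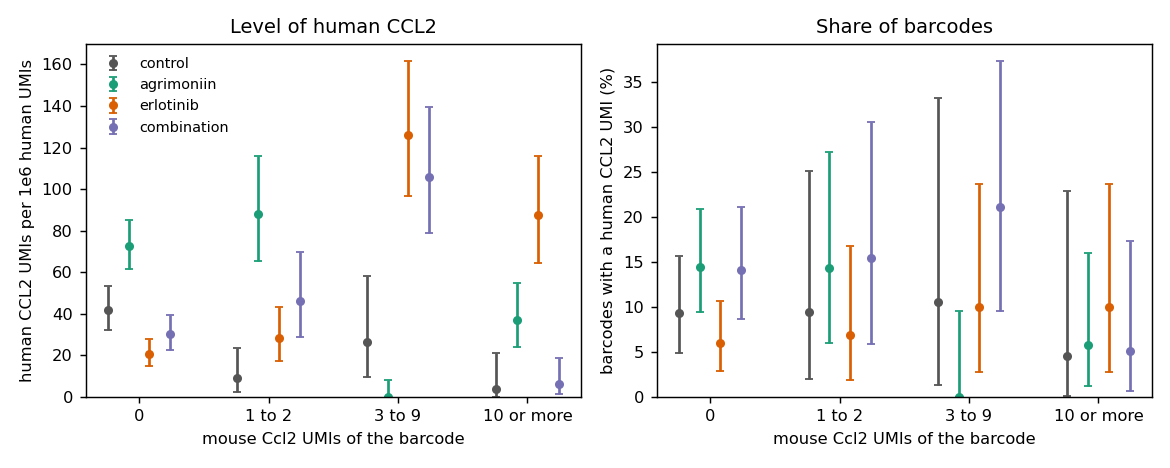
Human CCL2 level in CPM (left) and share of barcodes with a human CCL2 UMI in % (right), by the number of mouse Ccl2 UMIs of the barcode (horizontal axis), 1 colour per library with 95% counting intervals. Control falls from 41.8 at 0 mouse UMIs to 3.76 at 10 or more, while erlotinib rises from 20.7 to 87.4.

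The plot by mouse Ccl2 count also shows how wide the intervals on shares are: at 10 or more mouse UMIs the 4 libraries lie between 4.55% and 10% and their intervals overlap.

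Human counts were also set beside mouse counts of the same symbol for 30 genes of fibroblasts and macrophages. Per 100 mouse Ccl2 UMIs there were 11 human CCL2 UMIs in control, 12.3 with agrimoniin, 13.2 with erlotinib and 10.2 with the combination. Of the 30 host genes, 28 had fewer human UMIs per 100 mouse UMIs than CCL2, with a median over the 30 of 0.273. The macrophage genes C1QA, C1QB, C1QC, CCL3, CCL4, IL1B and TYROBP had 0 human UMIs in all libraries, beside 12380 mouse UMIs for C1qc. CCL7 had 2 human UMIs beside 2963 mouse UMIs. COL1A1 (90.3 human per 100 mouse UMIs) and COL5A2 (85.5) were above CCL2, and COL3A1 (6.65) and the lysosomal protein CD68 (4.43) next below it. In the combination COL3A1, at 10.5, was above CCL2, at 10.2. Assignment of reads of one species to the other was not tested.

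**Figure D4:**
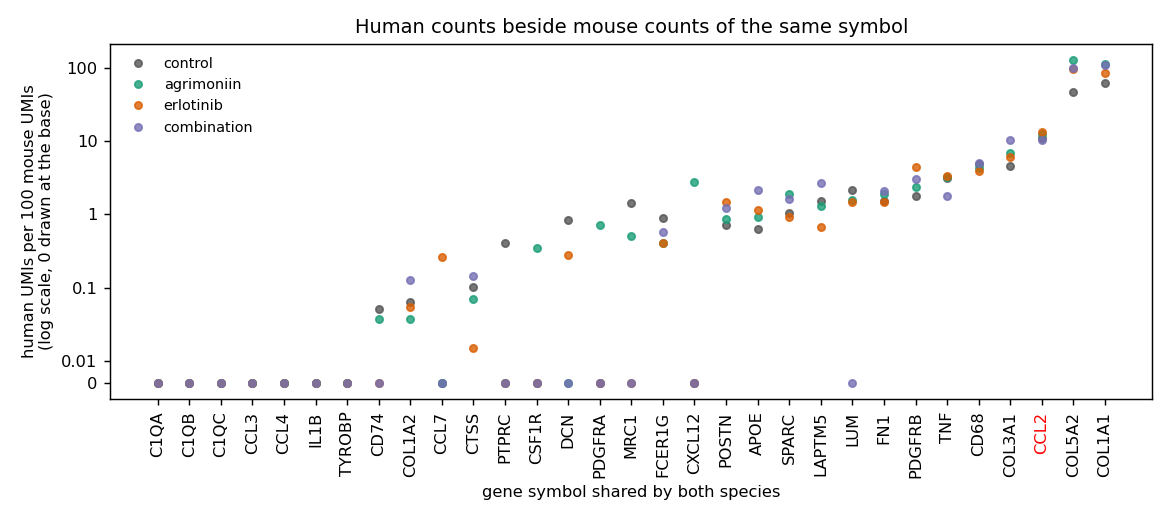
Human UMIs per 100 mouse UMIs of the same gene symbol (vertical, log scale with 0 drawn at the base) for CCL2, in red, and 30 fibroblast and macrophage genes, ordered by their value over all libraries, 1 point per library. CCL2 lies at 10.2 to 13.2, below COL5A2 and COL1A1 in every library and close to COL3A1 in the combination.

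In the plot of same-symbol pairs, the 4 libraries give CCL2 almost the same value, while the lowest genes are at 0 in all 4.

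Human CCL2 was set out by the mouse class of the barcode. In barcodes with a fibroblast-like mouse part it was 62.2 CPM in control, 83.2 with agrimoniin, 92.2 with erlotinib and 54.0 with the combination. In barcodes with a macrophage-like part it was 3.69 (4 UMIs), 43.4, 20.3 and 24.7. The fibroblast-like level was higher than the macrophage-like level in all 4 libraries, 16.8 times in control (6.28 to 63.7), 1.92 with agrimoniin (1.42 to 2.60), 4.55 with erlotinib (3.16 to 6.66) and 2.19 with the combination (1.41 to 3.44). Without the highest barcode of each class and library, fibroblast-like levels were 26.7, 37.4, 52.0 and 37.4. Macrophage-like levels were then 2.81, 31.4, 11.7 and 18.1. The fibroblast-like level was still the higher in each library, but by little in agrimoniin (48 against 56 UMIs). No interval was computed for these. The share of barcodes with a human CCL2 UMI did not differ in this way: it was 11.5%, 9.62%, 7.53% and 13.8% in fibroblast-like barcodes and 4.82%, 9.86%, 4.88% and 12.4% in macrophage-like ones, higher in agrimoniin macrophage-like than in agrimoniin fibroblast-like barcodes. In barcodes of neither class human CCL2 was 18.8 (7 UMIs), 63.3, 34.0 and 49.9 CPM. The fibroblast-like level was 3.31 times this in control (1.52 to 8.55) and 2.71 times with erlotinib (1.73 to 4.41). With agrimoniin (1.32 times, 0.921 to 1.91) and the combination (1.08 times, 0.700 to 1.70) the difference was within counting error. Without the highest barcode, the neither level there was 44.4 and 38.6, above the fibroblast-like level.

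Between libraries, human CCL2 differed most beside macrophage-like parts. The agrimoniin level there was 11.7 times that of control (4.41 to 44.2), the erlotinib level 5.49 times (1.99 to 21.1) and the combination level 6.69 times (2.38 to 26.0), all against 4 control UMIs. Beside fibroblast-like parts the ratios to control were 1.34 (0.975 to 1.84), 1.48 (1.08 to 2.04) and 0.868 (0.604 to 1.24). Over all barcodes that were not fibroblast-like the ratios were 6.32, 3.17 and 4.29. Of the 77 control UMIs, 66 were beside fibroblast-like parts, 38 of them in 1 barcode.

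Mouse Ccl2 was the most abundant of the 4 genes and was highest in fibroblast-like parts. There it was 889 CPM in control (816 to 966; 553 UMIs) and 2714 with agrimoniin (2584 to 2848; 1634 UMIs). It was 1846 with erlotinib (1738 to 1960; 1078 UMIs) and 2207 with the combination (2069 to 2352; 949 UMIs). Counts per part ran from 0 to 56, 84, 76 and 55 UMIs, with medians of 0 in control, 7.5 with agrimoniin, 4 with erlotinib and 2.5 with the combination, so the 4 libraries overlapped widely. Control was the lowest library and agrimoniin the highest.

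The ratios to control were 3.05 for agrimoniin (2.77 to 3.37), 2.08 for erlotinib (1.87 to 2.31) and 2.48 for the combination (2.23 to 2.76). All 3 passed 1.5-fold, as did 18%, 18.2% and 16.8% of the mouse genes tested in fibroblast-like parts. The combination was 1.23-fold lower than agrimoniin (1.13 to 1.33) and 1.2 times erlotinib (1.09 to 1.31). The share of fibroblast-like parts with a Ccl2 UMI was 48.3% in control (37.4 to 59.2), 72.1% with agrimoniin (62.5 to 80.5), 72.0% with erlotinib (61.8 to 80.9) and 64.9% with the combination (54.4 to 74.5). Thinned to 1000 mouse UMIs, with no part left out, the shares were 30.6%, 59.8%, 51.8% and 49.6%. Higher levels in the treated libraries therefore came with more parts holding Ccl2.

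**Figure D5:**
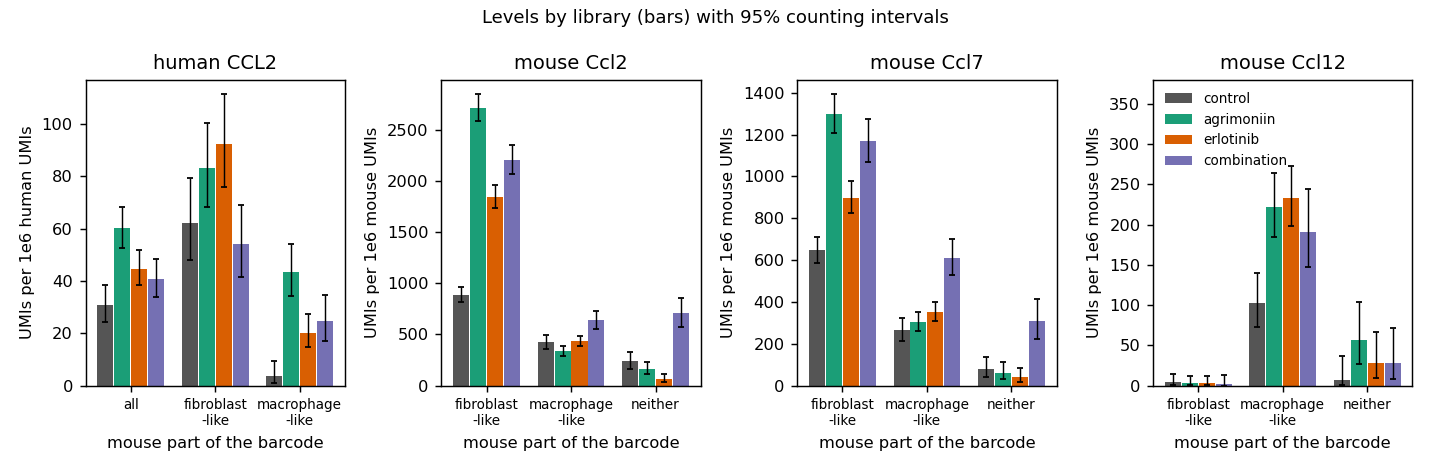
Levels of human CCL2 (UMIs per 1000000 human UMIs) and of mouse Ccl2, Ccl7 and Ccl12 (UMIs per 1000000 mouse UMIs) by mouse class of the barcode, 1 bar per library with its 95% counting interval. Mouse Ccl2 and Ccl7 are highest in fibroblast-like parts, with control the lowest library, and Ccl12 in macrophage-like parts.

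In the plot of levels, agrimoniin is the highest library for mouse Ccl2 and Ccl7 in fibroblast-like parts, and erlotinib for human CCL2 beside the same parts. The human order is within counting error: erlotinib was 1.11 times agrimoniin (0.842 to 1.46), with 48 of 109 and 60 of 108 UMIs in 1 barcode each. For Ccl7 the combination was 0.899 times agrimoniin (0.802 to 1.01), also within counting error.

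Macrophage-like parts had lower Ccl2, at 422 CPM in control, 334 with agrimoniin, 435 with erlotinib and 640 with the combination. The fibroblast-like level was 2.11 times the macrophage-like level in control (1.76 to 2.53), 8.12 with agrimoniin (6.99 to 9.49), 4.25 with erlotinib (3.73 to 4.85) and 3.45 with the combination (2.97 to 4.02). Against control, macrophage-like Ccl2 was 0.792 times as high in agrimoniin (0.639 to 0.983), 1.03 with erlotinib (0.847 to 1.26) and 1.52 with the combination (1.23 to 1.87). The combination alone passed 1.5-fold upward, which 15%, 16.8% and 16.4% of the mouse genes tested in macrophage-like parts did in the 3 comparisons. In control 51 of the 161 macrophage-like UMIs were in 1 part that also passed the collagen threshold. With parts in both classes left out, the ratios were 1.16, 1.31 and 2.19, so the direction of the agrimoniin ratio turned on that part. Parts in neither class had 237, 163, 62.8 and 705 CPM, highest in the combination.

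Ccl7, another ligand of Ccr2, had a level of 646 CPM in fibroblast-like parts of control, 1299 with agrimoniin, 899 with erlotinib and 1167 with the combination. The ratios to control were 2.01 (1.78 to 2.27), 1.39 (1.22 to 1.59) and 1.81 (1.58 to 2.06), each below the ratio for Ccl2. In macrophage-like parts it was 265, 303, 352 and 609 CPM, with ratios of 1.14 (0.889 to 1.48), 1.33 (1.05 to 1.69) and 2.30 (1.80 to 2.95). Both Ccl2 and Ccl7 were therefore highest in agrimoniin among fibroblast-like parts and in the combination among macrophage-like parts. For Ccl7 in fibroblast-like parts the combination was within counting error of agrimoniin (0.899 times; 0.802 to 1.01).

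The balance of the 2 genes differed by class. Per 100 Ccl2 UMIs, fibroblast-like parts had 72.7 Ccl7 UMIs in control, 47.9 with agrimoniin, 48.7 with erlotinib and 52.9 with the combination. Macrophage-like parts had 62.7, 90.6, 80.9 and 95.3. The control sums of both classes include the 1 part that passed both thresholds, with 51 Ccl2 and 4 Ccl7 UMIs. It held 51 of the 161 Ccl2 UMIs of control macrophage-like parts. The order of the classes in control turned on that part: without it the macrophage-like balance was the higher, as in the treated libraries. Ccl7 was found in the parts that held Ccl2: 78.6%, 92%, 79.1% and 82.0% of fibroblast-like parts with Ccl2 had a Ccl7 UMI, against 40%, 27.6%, 38.5% and 24.2% of those without. Deeper parts are more likely to show both genes. The correlation of their log levels across fibroblast-like parts was 0.55, 0.83, 0.61 and 0.72, and across macrophage-like parts 0.69, 0.61, 0.60 and 0.78.

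Ccl12, also a Ccr2 ligand, was a macrophage-like gene in these libraries. Its level in macrophage-like parts was 102 CPM in control (39 UMIs), 222 with agrimoniin (127), 233 with erlotinib (157) and 191 with the combination (63). Fibroblast-like parts had 3, 2, 2 and 1 UMIs. Of these, 3, 0, 1 and 1 lay in barcodes that passed both thresholds and so count in both classes. All fibroblast-like Ccl12 UMIs of control and the combination were thus in that overlap, and the ratios that follow do not compare the libraries. The macrophage-like level was 21.2 times the fibroblast-like level in control (6.74 to 107), 66.9 with agrimoniin (18.1 to 558), 68.0 with erlotinib (18.5 to 567) and 82.1 with the combination (14.2 to 3294), on those few fibroblast-like counts. Against control, macrophage-like Ccl12 was 2.17 times as high in agrimoniin (1.51 to 3.20), 2.28 with erlotinib (1.60 to 3.33) and 1.87 with the combination (1.23 to 2.86). The 3 treated libraries did not differ from one another beyond counting error, the combination being 1.16-fold lower than agrimoniin (0.853 to 1.60) and 1.22-fold lower than erlotinib (0.905 to 1.66).

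Macrophage genes were not absent from the fibroblast-like parts, and their amount differed between libraries. The 7 macrophage markers summed to 77.2 CPM in fibroblast-like parts of control (2 of 7 at 0), 326 with agrimoniin, 596 with erlotinib and 237 with the combination (none at 0), against 11757 to 13553 in macrophage-like parts. These markers include C1qa, C1qb and C1qc, and the fibroblast markers below include Col1a1, Col1a2 and Col3a1. Those genes set the classes, so the contrast of either sum between classes follows in part from the rule. Ccl12 in fibroblast-like parts stayed at 2.33 to 4.82 CPM, at or under the level of 3 UMIs. The part of these macrophage genes in the fibroblast-like Ccl2 levels was not tested. In the other direction, the 7 fibroblast markers summed to 1065 to 4432 CPM in macrophage-like parts, highest in erlotinib, against 61316 to 79005 in fibroblast-like parts, and the part this has in macrophage-like Ccl2 was not tested. Barcodes of both classes (1, 2, 5 and 1) are in both sums. In erlotinib the macrophage markers had 348 UMIs in fibroblast-like, 8831 in macrophage-like and 246 in neither parts, against 9114 over all barcodes. Most of the 348 therefore came from those 5 barcodes. The fibroblast markers had 46130, 2987 and 139 UMIs against 46621, so most of the 2987 did too. Of the other host cell types, pericyte or smooth muscle markers were the most abundant in fibroblast-like parts (1778, 1199, 805 and 1681 CPM), with endothelial (20.9 to 79.7), neutrophil (3.22 to 32.6), dendritic (2.33 to 15.4), natural killer (0 to 24.9), mast (0 to 4.98) and keratinocyte markers (0) low. Monocyte markers summed to 337 to 545 CPM in fibroblast-like parts, with 2 of 3 at 0 in control and erlotinib, and to 65.5 to 165 in macrophage-like parts.

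Within the fibroblast-like class, Ccl2 was unevenly spread over narrower groups, named here by the gene pair that picked them. In parts with at least 3 UMIs of Prg4 and Dpt, genes known from lining and adventitial fibroblasts, Ccl2 was 1282 CPM in control, 4039 with agrimoniin, 2702 with erlotinib and 4756 with the combination. In parts with none it was 762, 1803, 1375 and 1514. In parts with at least 3 UMIs of Grem1 and Lrrc15, known from tumour myofibroblasts, it was 665, 1222, 790 and 563, against 1400, 4062, 2822 and 3649 in parts with none. Ccl2 was thus higher with Prg4 and Dpt, and lower with Grem1 and Lrrc15, in all 4 libraries.

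The mix of these groups differed between libraries. Control had 6 fibroblast-like parts with at least 3 Prg4 and Dpt UMIs, agrimoniin 29, erlotinib 18 and the combination 17. Control had 48 with at least 3 Grem1 and Lrrc15 UMIs, agrimoniin 23, erlotinib 24 and the combination 38. Within the parts without Prg4 and Dpt, Ccl2 was still lowest in control. Within the parts with Grem1 and Lrrc15 it was not: the combination, at 563, was below control, at 665. A count of at least 3 UMIs depends on depth, and fibroblast-like parts of control were the deepest (median 6229 mouse UMIs) and those of the combination the shallowest (3735).

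Among macrophage-like parts, all 3 mouse chemokines were highest with Lyve1 and Cbr2, genes of resident tissue macrophages. The 4, 13, 8 and 14 parts with at least 3 UMIs of these had Ccl2 at 1616, 938, 671 and 1953 CPM, against 383, 223, 330 and 306 in parts with none. Ccl12 was 876, 594, 922 and 543 against 73.3, 168, 110 and 107. Ccl7 was 3435, 1016, 1425 and 1700 against 141, 184, 214 and 266. Parts with at least 3 UMIs of Mmp12 and Arg1 (11, 9, 14 and 7 parts) had less Ccl2 than parts with none, 236, 46.1, 141 and 120 against 480, 359, 503 and 711. The lower levels rest on 16, 2, 11 and 3 Ccl2 UMIs. In control the parts with none had 131 UMIs, among them the 51 of the part that passed both class thresholds. Over all mouse parts, those with at least 3 UMIs of Ly6c2 and Ccr2, genes of inflammatory monocytes, had Ccl2 at 109, 193, 399 and 165 CPM, against 648, 1597, 1152 and 1491 in parts with none, which include the fibroblast-like parts. The UMIs of the pair were summed, so a part could pass on either gene.

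By likeness, the 5 of 2753 mouse genes that followed Ccl2 most closely across the 378 fibroblast-like parts were Cxcl1 (mean within-library Pearson correlation 0.76), Ccl7 (0.68), Nfkbia (0.56), Nfkbiz (0.55) and Gem (0.51). Cxcl1 attracts neutrophils, Nfkbia and Nfkbiz encode inhibitor proteins of the NF-kB family, and Gem is a small GTPase. Across the 494 macrophage-like parts the 5 of 2230 were Egr1 (0.45), Ccl3 (0.39), Ccl12 (0.39), Ccl6 (0.38) and Folr2 (0.37). Ccl7 was not ranked there, since too few control macrophage-like parts (16.9%) held a Ccl7 UMI to meet the share the ranking required. Its correlation with Ccl2 across macrophage-like parts was 0.69 in control, 0.61 with agrimoniin, 0.60 with erlotinib and 0.78 with the combination. Each of these values was above the mean for Egr1. Egr1 is an immediate early transcription factor and Folr2 a marker of resident macrophages. The median over all ranked genes was -0.01 in fibroblast-like and -0.02 in macrophage-like parts, and all points of a library share its depth.

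Receptors of these ligands were counted in macrophage-like parts and in parts of neither class. Ccr2, the main receptor, was at 186 CPM in macrophage-like parts of control, 177 with agrimoniin, 224 with erlotinib and 72.8 with the combination. The combination was 2.56-fold lower than control (1.59 to 4.26), on 24 against 71 UMIs, a fall of 1.5-fold or more that 19.4% of mouse genes in these parts also showed. Parts of neither class had 105, 225, 371 and 69.8, again lowest in the combination. Fibroblast-like parts had at most 5 Ccr2 UMIs a library. Ccr1 was at 123, 122, 138 and 179. Human CCR2 had 0 UMIs in all libraries.

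Other genes of the pathway were compared between the treated libraries and control in fibroblast-like parts. The lists were other chemokines, inducers of Ccl2 with their receptors, and NF-kB genes with RNA decay factors, and they were set with results of these libraries known. Of all mouse genes tested in these parts, 18% in agrimoniin, 18.2% in erlotinib and 16.8% in the combination were at least 1.5-fold higher than control, and each count below is read against that share. In agrimoniin against control all 12 of 12 tested NF-kB and decay genes were at least 1.5-fold higher, with a median ratio of 2.01 beside 0.992 over all genes. Icam1 was 3.72 times as high (2.37 to 6.05), Nfkb1 2.65 times (2.08 to 3.39), Birc3 2.68 times (1.61 to 4.60) and Nfkb2 6.71 times on 13 against 2 UMIs (1.52 to 61.3). In the combination 11 of 12 were higher, with a median of 1.98, and Icam1 was 4.22 times as high (2.65 to 6.95). In erlotinib 3 of 12 were higher, near the share over all genes, with a median of 1.17: Icam1 2.51 times (1.55 to 4.19), Nfkb1 1.52 times (1.16 to 1.99) and Nfkb2 6.92 times on 13 against 2 UMIs (1.57 to 63.2). No gene of this list was 1.5-fold lower in any of these 3 comparisons, a direction in which 15.7%, 17.1% and 17.1% of all genes tested passed in agrimoniin, erlotinib and the combination. The 3 share the control library.

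Other chemokines were higher in 10 of 13 tested in agrimoniin, 11 of 11 with erlotinib and 6 of 10 with the combination, where 3 were lower (Cxcl9, Cxcl12 and Cxcl14). Over all mouse genes 18%, 18.2% and 16.8% were higher and, in the combination, 17.1% lower. The median ratios of the chemokines were 2.57, 2.24 and 2.05. Cxcl10, an interferon-induced T cell chemokine, was 6.26 times control in agrimoniin (4.62 to 8.65), 5.04 with erlotinib (3.69 to 7.01) and 7.59 with the combination (5.57 to 10.5). Cxcl1 was 2.57 times control in agrimoniin (2.34 to 2.82). Cxcl9, another interferon-induced chemokine, was 3.41 times control in erlotinib (2.62 to 4.50) and 1.58 times in agrimoniin (1.17 to 2.16), and 0.555 times in the combination (0.345 to 0.869). Ccl4, a chemokine that macrophages make, was 5.43 times control in erlotinib (2.73 to 12) on 51 against 10 UMIs. The macrophage markers given above were also highest in these parts, with the 5 barcodes of both classes counted in. Their part in the Ccl4 level was not tested.

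Inducers and their receptors were higher in 8 of 10 tested in agrimoniin, 7 of 12 with erlotinib and 6 of 11 with the combination, with 1 lower in the combination (Tnfrsf1a, a receptor of tumour necrosis factor), beside the same 18%, 18.2% and 16.8% of all genes higher and 17.1% lower. Lif, a cytokine of the interleukin-6 family, was 10.4 times control in agrimoniin (5.45 to 22.4), 5.11 with erlotinib (2.55 to 11.3) and 7.38 with the combination (3.70 to 16.3). Csf1, the growth factor of macrophages, was 2.94 times control in agrimoniin (2.37 to 3.68), 2.05 with erlotinib (1.62 to 2.59) and 1.85 with the combination (1.43 to 2.39). Il6 was 2.58 times control in agrimoniin (1.83 to 3.69) and 1.93 with the combination (1.31 to 2.87). Il1b, which macrophages are known to make, went from 4 UMIs in control to 15, 53 and 59.

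In macrophage-like parts fewer list genes passed 1.5-fold in agrimoniin and erlotinib than in the combination. NF-kB and decay genes at least 1.5-fold higher were 1, 1 and 5 of 12 with agrimoniin, erlotinib and the combination, with medians of 1.14, 0.964 and 1.42. Over all mouse genes tested there 15%, 16.8% and 16.4% were higher, more than the 1 of 12 in agrimoniin and erlotinib. In the combination the 5 higher genes were Nfkbia (2.92 times, 2.53 to 3.38), Nfkbiz (2.21), Icam1 (2.16), Tnfaip3 (1.99) and Zfp36 (1.86). Zfp36 is a factor that speeds the decay of cytokine RNAs. Of the 12 genes, 1 was 1.5-fold lower in erlotinib and 0 in agrimoniin and the combination. Chemokines were higher in 3 of 11, 4 of 12 and 6 of 11, and lower in 0, 2 and 1, beside 14.1%, 13% and 19.4% of all genes that were lower. Ccl8, a chemokine of the same gene cluster, was 3.02 times control in agrimoniin (2.50 to 3.67), 1.80 with erlotinib (1.48 to 2.20) and 5.30 with the combination (4.38 to 6.44). Inducers and their receptors were higher in 1 of 10, 2 of 10 and 5 of 11, and lower in 0, 1 and 1, beside the same shares of all genes. Of these, Tnf was 1.64 times control in agrimoniin (1.26 to 2.15) and 2.86 with the combination (2.20 to 3.75). Whether these counts differ between the drugs was not tested.

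The human lists showed few differences. In the human parts all 12 NF-kB and decay genes were tested. With agrimoniin ICAM1 alone was 1.5-fold higher, at 1.82 times control (1.35 to 2.50), and none was lower. Over all human genes 3.03% were higher there and 2.09% lower. In erlotinib TNFAIP3 was 1.56-fold lower (1.15 to 2.12) and CXCL1, of 2 chemokines tested, 1.60-fold lower (1.15 to 2.25), a direction in which 2.66% of human genes passed 1.5-fold. None of the 12 passed in the combination, where 3.08% of human genes were 1.5-fold higher and 2.78% lower. The list medians were 0.941, 1.02 and 1.03, beside 1.03, 1.02 and 1.02 over all human genes. Human CCL2 with agrimoniin passed 1.5-fold upward, as did 1 of the 12 human NF-kB and decay genes. With 3.03% of human genes passing upward, this count does not set CCL2 apart from the list.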

How the data were processed

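The 4 libraries of single-cell RNA, 1 for each treatment, were analysed from the deposited UMI counts per feature and barcode. The counts came from Cell Ranger on the builds hg38 and mm10, per the submitters' processing notes, with no version stated. A droplet 3′ kit is named, per the labels' protocols. Features are split by species in the deposited tables, and each count is a UMI assigned by the authors to 1 gene. All deposited barcodes were used with no further filter. Because both species were present in each barcode, doublets were not called.

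Counts were summed over the barcodes of a class and given as CPM (per 1000000 UMIs of that species). Ratios have exact conditional binomial, levels exact Poisson and shares exact Clopper-Pearson 95% intervals, which cover counting error only. A gene was tested at a mean of at least 10 CPM and called at 1.5-fold. Shares were also computed after thinning to 1000 UMIs as an exact expectation. A count of 0 allows up to 3 counts. Barcodes in both classes count in both; 9 lay within 20% of the collagen threshold and 33 within 20% of the C1q threshold.

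The members, lists and comparisons were chosen with earlier results of these data known. Named genes were the members, the list genes past 1.5-fold (up to 4 with the largest ratio per list and comparison, and others of a list named as examples after their values were seen), and the 5 most like mouse Ccl2 among genes with a UMI in at least 20% of parts in every library. The ratio intervals and the 1.5-fold calls were tested on simulated Poisson counts with known folds. The level and share intervals were not tested in this way. Human CCL2 is spread over barcodes more unevenly than Poisson counts, so the simulation does not cover that spread. The likeness ranking of human genes, a further receptor and the CCL2 sequence are not reported here. Alternatives are described in the closing section. Python 3.11.15, numpy 2.4.6, scipy 1.17.1, pandas 2.3.3 and matplotlib 3.10.9 were used.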

Additional observations from a re-analysis of the deposited data

How the results depend on the processing

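Ratios of human CCL2 to control were the least stable. In the order agrimoniin, erlotinib, combination they were 1.96, 1.45 and 1.32 as reported. They were 2.84, 2.08 and 2.20 without the highest barcode of each library, 6.30, 2.11 and 2.75 in barcodes with at least 75% human UMIs, and 6.32, 3.17 and 4.29 in barcodes that were not fibroblast-like. With at most 10% mitochondrial human UMIs they were 1.40, 0.616 and 0.740, so that erlotinib and the combination turned below control. In barcodes with 0 to 2 mouse Ccl2 UMIs erlotinib was 0.651 and the combination 0.967. Both of the next alternatives were chosen after the data were seen: without the 3 highest barcodes the ratios were 3.32, 2.09 and 2.69, and as shares of barcodes with a UMI agrimoniin was 1.25 and erlotinib 0.807. The cause was not tested. Agrimoniin stayed above control under all 10 alternatives, erlotinib under 7 and the combination under 8.

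Mouse Ccl2 in fibroblast-like parts stayed above control under all 8 alternatives in each treated library. With parts in both classes left out it was 3.41 times control in agrimoniin and 2.35 in erlotinib, and as a ratio of shares 1.49, 1.49 and 1.34. In macrophage-like parts the agrimoniin ratio of 0.792 became 1.07 with the stricter C1q threshold, 1.16 without parts in both classes and 1.22 as a ratio of shares. The level of human CCL2 at 10 or more against 0 to 2 mouse Ccl2 UMIs was 0.242 in agrimoniin among fibroblast-like parts and 0.960 without the 3 highest barcodes, 2.44 in erlotinib without these and 1.61 as shares, and 1.79 in the combination with mouse Ccl2 as CPM. In erlotinib fibroblast-like parts no ratio could be formed, since the 0 to 2 group had 0 human CCL2 UMIs. Of 81 alternatives of these main ratios 52 stayed within the interval of the reported value, and 6 lay on the other side of 1 from it, the 5 human CCL2 ratios to control below 1 and the 1.79 given above.

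The number of genes past 1.5-fold depended on the settings: human genes higher in agrimoniin were 3.03% at a mean of 10 CPM, 0.524% at 50 and 0.498% with a pseudocount of 10. No paired analysis was possible because each treatment has 1 library.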
